A study of Mus musculus with 2 samples.

Results

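The genes of the BMP, Nodal and TGF-beta pathway were examined in the open chromatin of mouse cardiac progenitor cells (CPCs). The pathway was taken as 51 named genes, comprising 16 ligands, 13 receptors, 10 modulators, 8 SMADs and 4 Id targets. Its peaks were the distinct intervals of the deposited peak list that carry the symbol of one of these genes. There were 130 such peaks among 26232 distinct peaks in all, and 47 of the 51 genes had at least 1.

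The samples were 2 replicates of a single group, ATAC-seq libraries of day 5 CPCs derived from E14 Tg(Nkx2-5-EmGFP) embryonic stem (ES) cells, for which the labels give the strain C57BL/6. ATAC-seq marks accessible DNA by letting the Tn5 transposase insert sequencing adapters into it. Every library came from cells that had been given BMP4, Activin A and VEGF during aggregation, followed by VEGF, bFGF and FGF10 in monolayer. Ligands of this pathway were thus added at the aggregation stage of both samples and are not listed for the monolayer stage. The directed protocol of the study also gives BMP4 before aggregation. No sample was without this exposure. The EmGFP reporter is driven by Nkx2-5, an early heart transcription factor, in 1 ES cell line, and Isl1 knockdown cells named for this series are not analysed here.

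Ligands of the TGF-beta family bind pairs of type I and type II receptor kinases at the cell surface, and the type I receptor then phosphorylates receptor-regulated SMADs. BMP ligands act mainly through Smad1, Smad5 and Smad9, whereas Nodal, activins and TGF-beta act mainly through Smad2 and Smad3. Both arms share Smad4, and Smad6 and Smad7 inhibit them. BMP signals are needed to specify heart cells from mesoderm, and the Id genes, which encode inhibitors of basic helix-loop-helix transcription factors, are among their best known direct targets.

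The sequences that match a known BMP response element are shown first. Since the Id genes are known BMP targets, such matches at them are a description and not a test. SMAD proteins bind GTCT and the GC-rich letters GGCGCC, and the letters GGCGCC followed after 5 bases by GTCT make up a BMP response element, bound by a complex of BMP SMADs and Smad4. This element was searched on both strands, and each of its matches also contains the GC-rich site. It was present in 7 of the 130 pathway peaks (5.38%, Wilson 95% interval 2.63 to 10.7) when the whole peak was read, and all 7 were peaks of Id genes. They are printed 5′ to 3′ from the mm9 genome, on the strand that reads GGCGCC first, with the letters of the motif in capitals, 6 flanking bases on each side, and the position of the element without its flanks.
Id1, chr2:152565207-152565221, plus strand, peak at 2490 bp: tacggaGGCGCCtggctGTCTgggccc
Id2, chr12:25783719-25783733, minus strand, peak at -3096 bp: gcgcctGGCGCCagagaGTCTgctccg
Id2, chr12:25777909-25777923, minus strand, peak at 3291 bp: ttgggtGGCGCCtgctaGTCTgccttg
Id3, chr4:135696455-135696469, plus strand, peak at -3264 bp: caccctGGCGCCaggctGTCTggggct
Id3, chr4:135700708-135700722, plus strand, peak at 435 bp: ctccctGGCGCCggccaGTCTgcggca
Id3, chr4:135703896-135703910, plus strand, peak at 3846 bp: ttcgctGGCGCCcggatGTCTgagctc
Id4, chr13:48358259-48358273, plus strand, peak at 394 bp: gtcggtGGCGCCagttaGTCTgcagcg

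Each of the 4 Id genes had a peak with the element, and it was found in 7 of their 17 peaks by deposited symbol (41.2%, interval 21.6 to 64.0). The other 113 pathway peaks held none (interval 0 to 3.29%). Among all 26232 peaks of the list, 76 held it, or 0.290%. Wider peaks offer more letters, and the Id peaks with the element were between 850 and 2893 bp wide. Among the 8240 peaks of the list at least as wide as the median Id peak of 1321 bp, 55 held it, or 0.667%. Id2 and Id3 were the only genes of the list with the element in more than 1 peak.

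The bases around the element were also alike. All 7 Id elements were followed directly by G, against 28 of the 71 elements in other peaks (39.4%). In 6 of the 7 the base before it was T, against 9 of 71 (12.7%). The longer run of letters with both bases was present in 10 peaks of the whole list, or 0.0381%, of which 6 were at Id2, Id3 and Id4. Msx2, a homeobox gene known to respond to BMP, also held it, in a peak 3345 bp upstream of its TSS. These 2 flanking bases were noticed after the sequences had been read.

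Within the peaks, the elements lay between 12 and 1075 bp from the peak centre. When only the central 300 bp of each peak was read, 1 pathway peak retained an element (0.769%, interval 0.136 to 4.23), against 0.0801% of all peaks. That peak, at -3264 bp from the Id3 TSS and 850 bp wide, had its element 12 bp from the centre. Its central window, chr4:135696324-135696623 on the plus strand of mm9, is intergenic and is printed with the element in capitals.
Id3, central 300 bp: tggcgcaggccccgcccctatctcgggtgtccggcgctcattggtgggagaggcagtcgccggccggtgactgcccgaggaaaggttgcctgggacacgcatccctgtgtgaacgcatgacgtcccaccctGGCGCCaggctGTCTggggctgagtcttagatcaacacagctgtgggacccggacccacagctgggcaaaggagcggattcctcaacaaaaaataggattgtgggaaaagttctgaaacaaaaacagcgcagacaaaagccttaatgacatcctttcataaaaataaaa

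A second SMAD site, the palindrome GTCTAGAC, which holds GTCT on each strand, was found in 3 pathway peaks. They were those of Lefty2 at -3919 bp, Smad6 at 142 bp and Smad7 at -169 bp, which encode 3 feedback inhibitors of the pathway. The share was 2.31% (interval 0.788 to 6.57) against 0.278% of all peaks in the central 300 bp. In the central 200 bp it was 0.769% (1 peak, interval 0.136 to 4.23), against 0.183%. When whole peaks were read it was 2.31%, in the same 3 peaks, and the 1.11% of all peaks lay inside the interval, so the contrast with the list depended on the window. In Smad6 the palindrome stood at the 5′-most annotated TSS itself, and in Lefty2 it stood 3786 bp upstream of the TSS. The Smad7 match was 350 bp upstream of the TSS. The Lefty2 and Smad6 matches are printed with the palindrome in capitals, from the plus strand of mm9.
Lefty2, chr1:182819450-182819457: tggtttGTCTAGACcagtcc
Smad6, chr9:63869863-63869870: atgccaGTCTAGACactttg

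The remaining motifs are given first for the central 300 bp. The GC-rich SMAD site GGCGCC was present in 26 of 130 pathway peaks (20.0%, interval 14.0 to 27.7), against 17.3% of all peaks. TGTNNATT, bound by FOXH1, a partner of Smad2 and Smad3 in Nodal signalling, was present in 8.46%, against 7.19%. AGATAA, bound by GATA factors, was present in 11.5%, against 9.50%. CTAATG, a LIM-homeodomain site of the kind bound by Isl1, was present in 6.15% of pathway peaks, against 6.54%. In each case the background lay inside the interval of the pathway share. Over whole peaks, GGCGCC was present in 43.1% of pathway peaks (interval 34.9 to 51.7) against 34.3% of all peaks, and AGATAA in 42.3% (34.2 to 50.9) against 33.5%, with both backgrounds just below the interval. TGTNNATT was then present in 39.2% (31.3 to 47.8) against 33.2%, and CTAATG in 23.8% (17.3 to 31.9) against 24.5%, with both backgrounds inside it. By distance, GGCGCC was in 85.4% of whole pathway peaks within 1 kb of the TSS (71.6 to 93.1), against 57.0% of all such peaks. Beyond 1 kb it was in 23.6% (16.0 to 33.4), against 15.8%. AGATAA was in 39.0% (25.7 to 54.3) within 1 kb against 29.7%, and in 43.8% (34.0 to 54.2) beyond against 36.7%. Pathway peaks within 1 kb were also wider than those of the list, and the part of width was not tested. A match of letters is a description and does not show that a factor was bound.

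Most members of the pathway were in the list. Of the 51 genes, 92.2% had a peak (interval 81.5 to 96.9), whereas 62.5% of the 21900 protein coding genes of the reference table did. A peak within 1 kb of the TSS by the deposited distance was present at 39 members (76.5%), against 50.1% of coding genes. Members with a peak had 2.77 peaks on average, with a median of 3 and a maximum of 8. Of these 47, 24 (51.1%) had 3 or more peaks, whereas 16.5% of coding genes with a peak did. That share was 55.6% for Wnt ligands with a peak, 36.4% for FGF ligands and 22.5% for 48 further pathway genes. Members also have more room around them. The stretch in which a TSS of the gene is the nearest coding TSS had a median length of 111 kb for members, against 46.8 kb for all coding genes. The part of this room in the count of peaks was not tested.

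**Figure D1:**
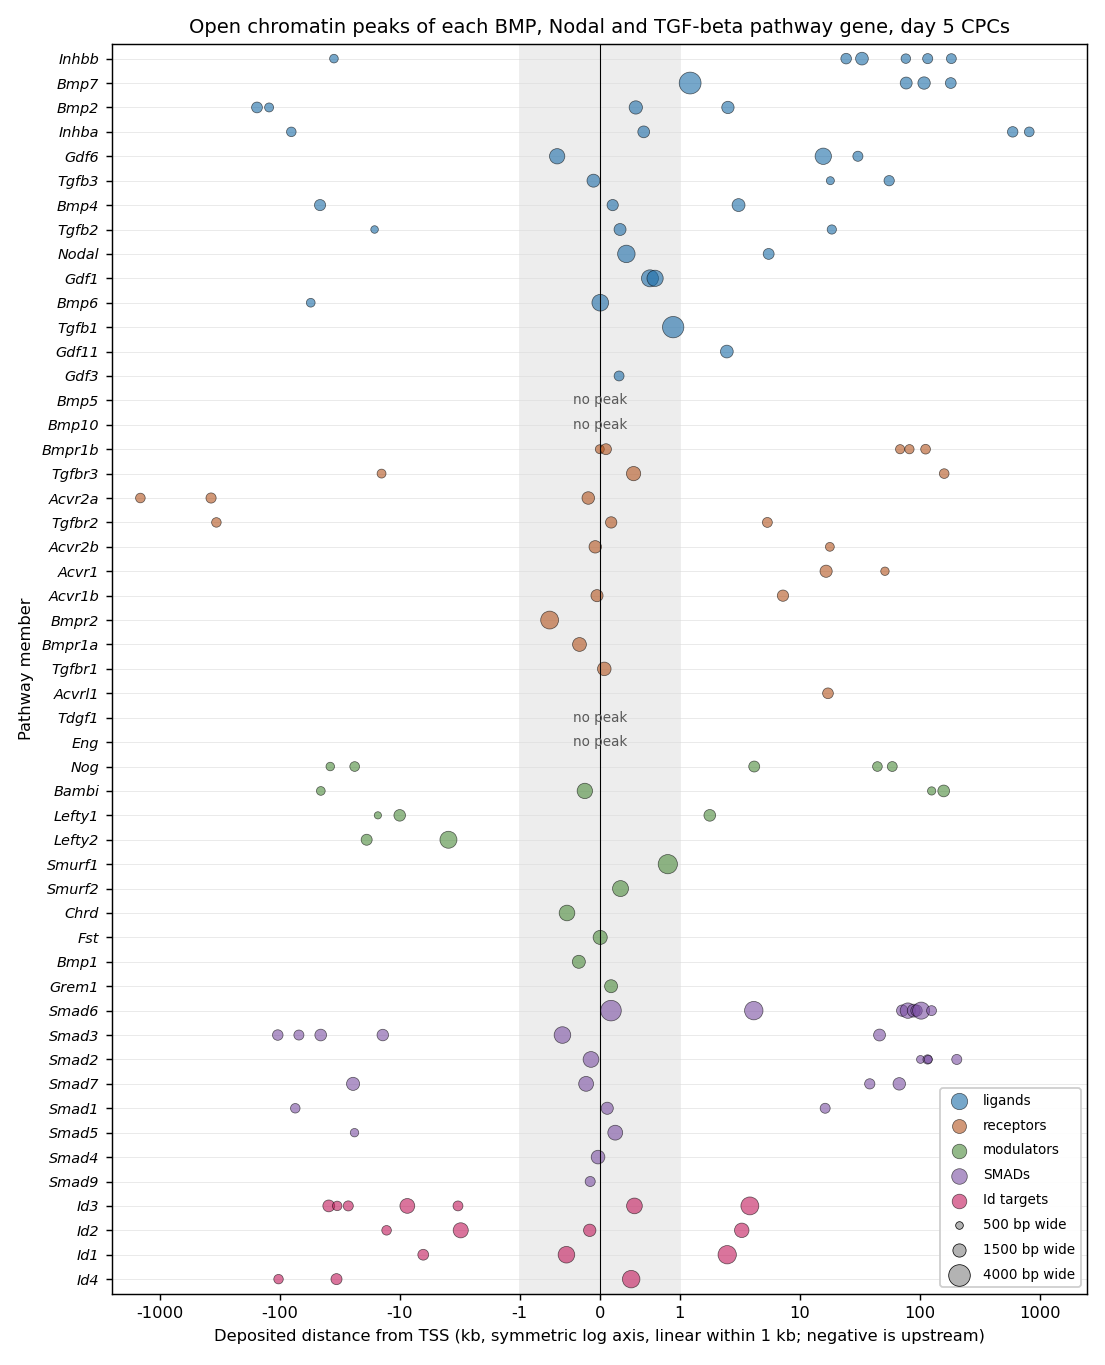
Every pathway peak by gene (rows, grouped by role) and by deposited distance of its centre from the TSS in kb (x axis, symmetric log, negative upstream), with circle area in proportion to peak width. Most genes had a peak within the grey band of 1 kb. Bmp7, Gdf11, Inhbb, Acvr1, Acvrl1, Nog, Lefty1 and Lefty2 had peaks on 1 or both sides of the band and none inside by deposited distance. Bmp5, Bmp10, Tdgf1 and Eng had no peak.

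Per gene, a TSS peak was more common among members (76.5%) than among coding genes (50.1%). As a share of peaks, those of the pathway lay away from the TSS more often than those of the list. Of the 130, 41 (31.5%, interval 24.2 to 40.0) were within 1 kb, against 44.9% of all peaks. Other signalling gene sets were also below the list. The share was 25.5% for peaks of Wnt ligands, 37.5% for those of FGF ligands and 32.1% for those of 48 further pathway genes. Beyond 100 kb there were 23 (17.7%, interval 12.1 to 25.2), against 8.20% of all peaks. Of the 89 peaks beyond 1 kb, 35 were upstream and 54 downstream of the TSS, at a median distance of 38.9 kb. By gene annotation, 65 of the 89 lay outside the bodies of protein coding genes. Of the rest, 20 lay in the body of their own gene and 4 in that of a neighbour. Those 4 neighbours were Ctif, Rrp15, Ttll5 and Unc5c. By class, 50.0% of the 130 peaks were intergenic, against 29.6% of all peaks. A peak called intergenic may lie in an intron of a non-coding gene.

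Roles differed in these counts, as far as 4 to 16 genes a role can show. All 8 SMADs and all 4 Id genes had a TSS peak. Among ligands, 14 of 16 had a peak and 11 a TSS peak. Among receptors, 11 of 13 had a peak and 9 a TSS peak. All 10 modulators had a peak and 7 had one at the TSS. The mean number of peaks per gene with a peak was 4.25 for Id genes, 3.75 for SMADs, 2.79 for ligands, 2.18 for receptors and 2.00 for modulators. The intervals of the shares of genes with a peak overlap for all 5 roles.

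**Figure D2:**
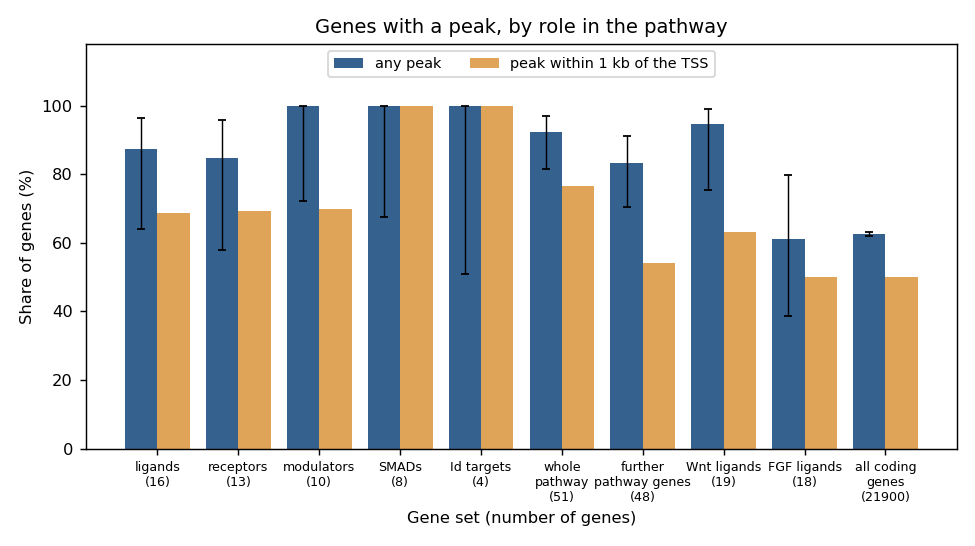
Share of genes (y axis, %) with any peak (blue, with Wilson 95% intervals) and with a peak within 1 kb of the TSS (orange), for the 5 roles, the whole pathway and comparison sets, with the number of genes under each. All SMADs and Id genes had a TSS peak, and the pathway as a whole stood at 92.2% and 76.5% against 62.5% and 50.1% of coding genes.

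The BMP ligands accounted for 16 peaks over 5 of 7 genes. Bmp2 and Bmp4, both of which act in heart formation, each had a TSS peak. That of Bmp2 was 1521 bp wide at 452 bp. Bmp2 had a further peak in its coding exon at 2525 bp and a pair of intergenic peaks at -122323 and -154332 bp. Bmp4, whose product was in the aggregation medium, had a TSS peak of 1087 bp at 163 bp. It also had an exonic peak of 1439 bp at 3096 bp and an upstream peak of 1076 bp at -46028 bp (chr14:47055835-47056910). Its widest peak was thus inside the gene and not at the TSS.

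Bmp7 had the widest peak of the pathway, 4104 bp (chr2:172762548-172766651). Its centre was 1223 bp downstream of the TSS, just outside the limit of 1 kb, although the interval overlapped the promoter of the gene. Just inside that limit were Tgfb1 at 919 bp and Smurf1 at 852 bp. The other 3 Bmp7 peaks were intergenic, at 77223, 108812 and 181591 bp, and between 1009 and 1326 bp wide. Bmp6 had a TSS peak of 2399 bp and a peak of 662 bp at -55030 bp. Gdf6 had 3 peaks, of which those at the TSS and in the coding exon at 15727 bp were 2018 and 2301 bp wide.

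Bmp5 and Bmp10 had no peak. Bmp10 is a ligand of the trabecular myocardium of later heart development. The nearest peak of any gene lay 54840 bp from the Bmp5 TSS, under the symbol Scg3, and 59099 bp from the Bmp10 TSS, under Arhgap25.

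Among the Nodal and activin ligands, Inhbb had the most peaks. It encodes the beta B subunit of activins and inhibins. Its 6 peaks were all intergenic, 1 at -35251 bp and 5 downstream between 24402 and 183630 bp, and none was wider than 1397 bp. No peak overlapped the Inhbb promoter, which is CpG-rich. Inhba, encoding the beta A subunit that forms Activin A, had a TSS peak of 1201 bp at 551 bp, an upstream peak at -79890 bp, and a pair of remote peaks at 595738 and 818569 bp in a gene-poor stretch. The assignment of peaks so far away rests on distance alone.

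Nodal, which patterns mesoderm, had a TSS peak of 2624 bp at 334 bp and a peak of 1030 bp in a coding exon at 5517 bp. Gdf1 and Gdf3, which encode partners of Nodal, had 2 and 1 peaks. Of the Gdf1 peaks, that of 2485 bp lay 575 bp from the TSS of Lass1, whose transcription unit Gdf1 shares, and 13360 bp upstream of the nearest annotated TSS of Gdf1. Gdf11 had 1 peak, of 1405 bp, in its intron at 2473 bp.

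The TGF-beta ligands had 7 peaks. Tgfb1 had the second widest peak of the pathway, 3914 bp at 919 bp, and no other. Tgfb2, a ligand of heart and valve development named by the study, had a TSS peak of 1239 bp at 255 bp (chr1:188528995-188530233), an intronic peak of 738 bp at 18529 bp, and a peak of 496 bp at -16168 bp inside the neighbouring gene Rrp15. Tgfb3 had a TSS peak of 1450 bp, an intronic peak at 18022 bp and a peak at 55686 bp within Ttll5.

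The receptors had 24 peaks. Their median width was 944.5 bp (rank-based 95% interval 788 to 1284, which holds the medians of the pathway and of the list), against 1114 bp for the pathway (interval 1007 to 1239) and 1081 bp for the list. Type II receptors all had a TSS peak, namely Bmpr2, Acvr2a, Acvr2b and Tgfbr2. That of Bmpr2 was the widest of any receptor, 2743 bp, and was its only peak. Acvr2a had a pair of upstream peaks at -372566 and -1445710 bp, the latter the most distant of the pathway, in a stretch of 1915.9 kb to which its TSS is the nearest coding one.

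Of the type I receptors, Bmpr1a, a BMP receptor needed for mesoderm, had a TSS peak of 1646 bp alone. Tgfbr1 likewise had 1 peak, of 1585 bp at the TSS. Bmpr1b had the most peaks of any receptor, 5, with 2 of them at TSSs, since the gene has several. They were 1034 bp wide at 79 bp and 690 bp wide at 2 bp, from different annotated TSSs. The other 3 lay downstream between 68688 and 111988 bp, and none of the 5 exceeded 1034 bp. Acvrl1, a receptor of endothelial cells, had a single peak of 994 bp at 17216 bp.

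Acvr1 showed how the assignment of symbols bears on a count. Its 2 peaks carried distances of 16608 and 51363 bp, so it had no TSS peak by the deposited distance. A peak of 1800 bp (chr2:58418665-58420464) nevertheless covered its 5′-most annotated TSS, 3 bp from the peak centre, under the symbol Upp2. The peak at 51363 bp lay 806 bp from another annotated TSS of Acvr1.

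Of the 3 co-receptors, Tgfbr3 had 3 peaks, including a TSS peak of 1750 bp. Tdgf1, the Cripto co-receptor of Nodal, and Eng, the endothelial co-receptor endoglin, had none. The nearest peak to the Tdgf1 TSS was 48716 bp away under Rtp3. For Eng, an intronic peak of 977 bp stood under the symbol Mir1954, 15522 bp downstream of the 5′-most Eng TSS, and an upstream peak stood under Ak1 at -8595 bp.

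The modulators comprised secreted antagonists and processing factors and inhibitors inside the cell. Nog, encoding the BMP antagonist noggin, had 5 peaks, at -37842, -23689, 4182, 44456 and 59106 bp. They were between 630 and 1037 bp wide and all intergenic, and none was at the TSS although its promoter is CpG-rich. Chrd, Grem1, Fst and Bmp1, encoding chordin, gremlin, follistatin and a protease that cleaves chordin, showed the opposite layout. Each had a single peak at the TSS, of 2102, 1453, 1715 and 1462 bp. Smurf1 and Smurf2, ubiquitin ligases that target SMADs and receptors, also had 1 peak each at the TSS, of 3179 and 2190 bp. A further pair of peaks within the Smurf1 gene stood under the symbol Mir7039.

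Bambi, a pseudoreceptor that blocks type I receptors, had a TSS peak of 2035 bp and 3 distal peaks at -45359, 125795 and 158567 bp. All 3 distal peaks held AGATAA in the central 300 bp, whereas the TSS peak did not. Over the whole list, 14.6% of peaks beyond 1 kb and 3.28% of those within 1 kb held it there. In the central 200 bp the peak at 125795 bp held no match.

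Lefty1 and Lefty2, the Nodal antagonists, lie in tandem and are induced by Nodal. Neither had a peak within 1 kb of its TSS by the deposited distance, although the Lefty1 peak at 1783 bp lay 65 bp from another annotated TSS of Lefty1. Lefty2 had a peak of 2487 bp at -3919 bp (chr1:182818078-182820564), wider than any other distal modulator peak, and a peak of 1047 bp at -18819 bp. The Lefty1 peaks were 450 bp at -15176 bp, 1159 bp at -9981 bp and 1180 bp at 1783 bp, and the first was the narrowest of the pathway. The central window of the Lefty2 peak, chr1:182819171-182819470 on the plus strand of mm9, is printed with the palindromic SMAD site in capitals.
Lefty2, central 300 bp: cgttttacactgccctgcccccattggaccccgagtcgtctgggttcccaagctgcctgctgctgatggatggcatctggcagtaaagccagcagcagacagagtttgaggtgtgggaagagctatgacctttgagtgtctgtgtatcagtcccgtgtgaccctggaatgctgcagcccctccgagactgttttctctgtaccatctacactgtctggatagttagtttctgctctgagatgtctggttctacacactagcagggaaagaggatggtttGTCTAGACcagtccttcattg

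The SMADs had 30 peaks, and the 2 inhibitory SMADs accounted for 12 of them. Smad6, which the study also names, had the most peaks of any member, 8, with a summed width of 15621 bp. Its TSS peak was 3635 bp wide at 142 bp (chr9:63867908-63871542) and held 7 matches to GGCGCC. An intronic peak of 2918 bp at 4147 bp lay 926 bp upstream of an internal annotated TSS. The other 6 peaks were intergenic, downstream of the gene between 71524 and 125547 bp, and spanned 55.0 kb. The widest of these, 2508 bp at 102868 bp (chr9:63765745-63768252), is shown by its central 300 bp, chr9:63766849-63767148 on the plus strand of mm9, with GGCGCC and CATTAG, the reverse complement of the LIM-homeodomain letters, in capitals.
Smad6, central 300 bp: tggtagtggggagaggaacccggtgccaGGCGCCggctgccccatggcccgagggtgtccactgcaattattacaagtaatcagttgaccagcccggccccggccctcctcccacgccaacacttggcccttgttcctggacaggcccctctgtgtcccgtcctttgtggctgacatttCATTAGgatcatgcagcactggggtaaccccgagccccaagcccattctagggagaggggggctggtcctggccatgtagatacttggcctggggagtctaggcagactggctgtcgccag

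Smad6 and Smad3 are neighbours read in the same direction, and the stretch between their gene bodies, 195 kb, held 11 peaks, all assigned to one or the other. From the 5′-most TSS of Smad3 to that of Smad6 there were 13 peaks over 264 kb. Smad3 had 6 peaks, with 4 upstream between -13814 and -103591 bp, a TSS peak of 2369 bp at -465 bp, and a peak of 1222 bp at 46294 bp that lay 268 bp from an internal TSS of Smad3. The deposited symbol splits the shared stretch by distance only, and which gene a peak acts on was not measured.

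**Figure D3:**
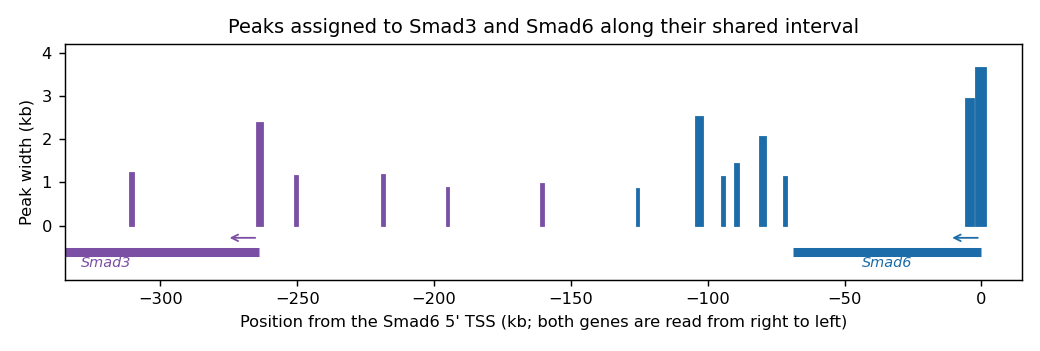
Peaks assigned to Smad3 (purple) and Smad6 (blue) by position from the Smad6 5′-most TSS (x axis, kb) and by width (y axis, kb, also the width of each bar), with gene bodies and direction of transcription below. The widest bar is at the Smad6 TSS and the next, of 2918 bp, in its intron, and 6 Smad6 peaks form a group between 71524 and 125547 bp downstream of it.

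Smad7, the other inhibitory SMAD, had a TSS peak of 1896 bp at -169 bp, a peak of 1482 bp at -24428 bp that held 5 matches to GGCGCC, and downstream peaks at 38370 and 67603 bp, the latter in the neighbouring gene Ctif. Such counts of GGCGCC were not particular to inhibitory SMADs, since the TSS peaks of Smad2 and Bmpr1a held 7 and 5. The receptor-regulated SMADs had 17 peaks and all had a TSS peak. Smad2 had 4 further peaks, all downstream between 101535 and 203739 bp and between 534 and 876 bp wide. Smad1 had peaks at -74028 and 16313 bp beside its TSS peak of 1268 bp, and Smad5 had 1 at -23763 bp beside a TSS peak of 1897 bp. Smad9 and the common Smad4 each had only a TSS peak, of 876 and 1603 bp.

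The 17 Id peaks had a median width of 1321 bp (interval 878 to 2121, which holds the list median). Id3 had 7 peaks within 44.8 kb. They were 1209, 778, 878, 1891 and 850 bp wide upstream, at -38933, -33124, -26782, -8625 and -3264 bp, 2121 bp wide at the TSS and 2759 bp wide at 3846 bp. Id2 had 4 peaks, of 794 bp at -12843 bp, 1965 bp at -3096 bp, 1321 bp at the TSS and 1805 bp at 3291 bp. Id1 had peaks of 1012 bp at -6355 bp, 2375 bp at -415 bp and 2893 bp at 2490 bp. Id4 had a TSS peak of 2637 bp and upstream peaks at -33568 and -102084 bp. Id1, Id2 and Id3 thus each had a wide peak between 2490 and 3846 bp downstream of the TSS, and the BMP response elements printed above were in all 3 of these, in the -3096 bp peak of Id2 and the -3264 bp peak of Id3, and in the TSS peaks of Id3 and Id4. In the TSS peaks of Id3 and Id4 the element lay 1303 and 1470 bp downstream of the 5′-most TSS. The TSS peaks of Id1 and Id2 held no match to the element.

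**Figure D4:**
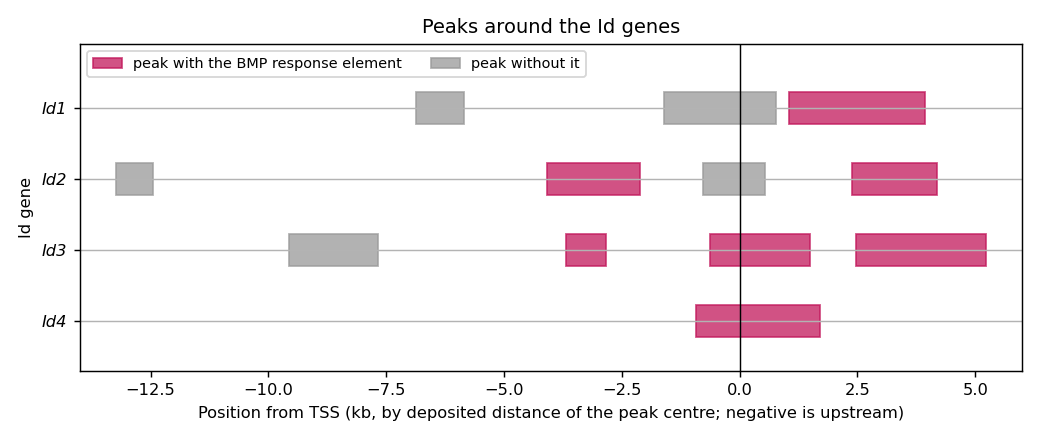
Peaks of the 4 Id genes (rows) drawn to scale by position from the TSS (x axis, kb, negative upstream), coloured by whether the whole peak holds the BMP response element. The 7 peaks with the element all lie in the window drawn, and peaks farther upstream, 3 of Id3 and 2 of Id4, none of which holds it, are outside it.

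Widths differed between peaks near to and far from the TSS. Pathway peaks within 1 kb had a median of 1715 bp, and those beyond 1 kb a median of 911 bp. Over the whole list these medians were 1326 and 911 bp. The median of the TSS peaks was 2248 bp for Id genes, 2035 bp for modulators, 1896.5 bp for SMADs, 1769.5 bp for ligands and 1345 bp for receptors. The 5 widest pathway peaks were those of Bmp7, Tgfb1, Smad6 at the TSS, Smurf1 and Smad6 in the intron. TSS peaks had a median GC content of 62.0% and distal peaks of 52.6%, against 58.6% and 51.4% in the list.

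**Figure D5:**
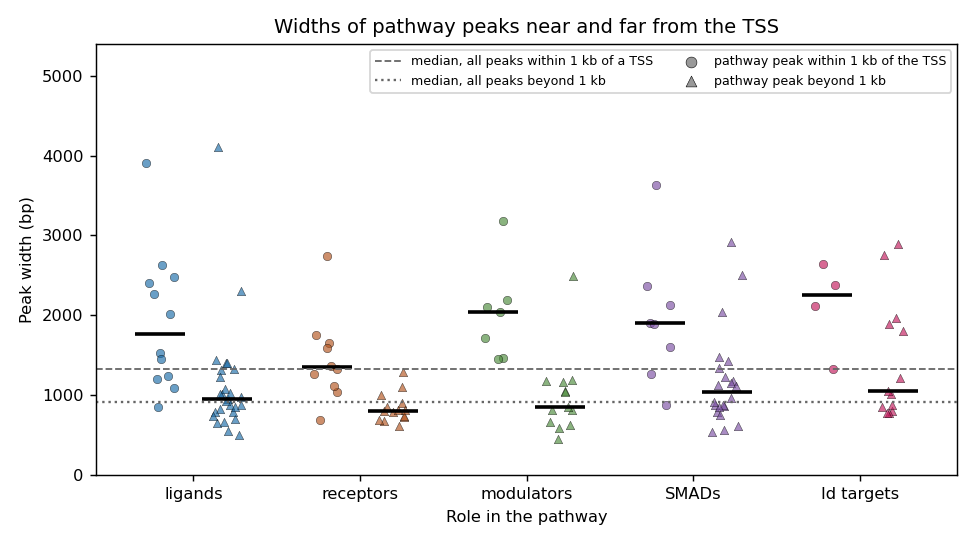
Width in bp (y axis) of each pathway peak by role (x axis), within 1 kb of the TSS (circles) and beyond (triangles), with black bars at the medians and grey lines at the medians of all peaks. The median of TSS peaks was above that of distal ones in each role, and the distal medians lay near that of the list.

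Promoters of members were also compared by their CpG content. A promoter was called CpG-rich where the observed over expected CpG ratio within 500 bp of the 5′-most TSS was at least 0.6 and the GC content at least 50%. Of the members, 72.5% had such a promoter, against 44.7% of coding genes. A peak of any symbol overlapped 34 of 37 CpG-rich member promoters (91.9%), against 89.4% of all CpG-rich promoters. The 3 without were Gdf11, Inhbb and Nog. A peak overlapped 7 of the 14 other member promoters (50.0%), against 24.9% of all such promoters. The part of promoter type in the count of TSS peaks was not tested.

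Of 48 further genes of the pathway, 40 had a peak (83.3%, interval 70.4 to 91.3). This interval overlaps that of the 51 members and lies above the 62.5% of coding genes. A TSS peak was present at 26 of the 48 (54.2%), against 76.5% of the 51 members and 50.1% of coding genes. The 8 without a peak by symbol were Gdf2, Mstn, Amhr2, Inhbc, Chrdl2, Dand5, Ltbp3 and Foxh1. Of the other signalling ligands, 18 of 19 Wnt ligands (94.7%) had a peak and 12 (63.2%) a TSS peak. Among 18 FGF ligands, 11 (61.1%) had a peak and 9 (50.0%) a TSS peak. The mean number of peaks per gene with a peak was 2.61 for Wnt ligands and 2.18 for FGF ligands, beside 2.79 for the ligands of this pathway.

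The identity of the cells was checked against lists of markers. Of 10 cardiac progenitor markers, 9 had a peak, 40 peaks in all, and the other was Hand2. Peaks were also present at 3 of 5 pluripotency markers, 5 of 5 neural markers, 4 of 5 liver markers and 3 of 5 blood and endothelial markers. A TSS peak was present at 7 cardiac, 2 pluripotency and 4 neural markers and at none of the liver, blood or endothelial markers. For comparison, 62.5% of all coding genes had a peak and 50.1% a TSS peak. Since regions of open chromatin also mark genes that are not expressed, these counts do not measure the makeup of the cells, and the part of other cells in the pathway peaks was not tested.

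Peaks near several members stood under the deposited symbols of other genes, both non-coding and coding. When each peak was given to the nearest annotated TSS of a protein coding gene, 163 peaks fell to the pathway, among them 126 of the 130. The 37 additional peaks were of 14 members. Smad7 went from 4 to 13 peaks, Smad6 from 8 to 12, Id2 from 4 to 10 and Smad2 from 5 to 9. None of the 6 additional Id2 peaks or the 2 of Id4 held the BMP response element, so the share of Id peaks with it is lower under this assignment. The 4 additional Smad6 peaks were upstream of its TSS, between 23.2 and 44.9 kb away, under the symbols 1700055C04Rik, 1110036E04Rik and Scarletltr. In all, 11 peaks over the bodies of 7 members or the 10 kb upstream of them stood under other symbols, among them B9d2 and Ccdc97 at Tgfb1 and Exog at Acvr2b. When assigned to the nearest coding TSS, Eng had 1 peak, and Bmp5, Bmp10 and Tdgf1 remained without any.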

How the data were processed

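ATAC-seq was performed on 2 replicates of day 5 CPCs, from independent differentiations per the study's methods. The authors deposited 1 peak list for both, with coordinates and signed TSS distances in bp, accessions and symbols. Per the methods and the submitters' processing notes, reads were mapped to mm9 with bowtie2, duplicates were removed with Picard 1.136, peaks were called with MACS14, and bedtools 2.15 was used to keep peaks shared by the replicates (1 bp or more). The list gives no score and no value per replicate. Neither the depth nor an error between replicates is known from it, and intervals cover counting error only. Intervals over peaks treat peaks of the same gene as independent. A width reflects caller and depth as well as chromatin, and absence from the list is not a measurement of closed chromatin.

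Identical intervals were counted once, since 134 lines of the members held 130 intervals. Annotation was GENCODE vM1 on NCBIM37 (mm9). Coding genes were those of the RefSeq table (GRCm38.p6), used for names only and matched by symbol, accession or synonym. For 66 of the 130 peaks the deposited distance was within 1 bp of the distance recomputed to the nearest annotated TSS of the member. For 111 peaks the difference was at most 1 kb. Shares carry Wilson 95% intervals and medians rank-based ones, and no test was possible with 1 group. Members, lists and motifs were chosen with earlier results of these data known. By rule, the 3 members with the most peaks in each role, Tgfb2, Smad6, Bmp4, Inhba and members with the 5 widest peaks were described peak by peak, and all others were accounted for. Functions were tested on simulated data with Python 3.11.15, pandas 2.3.3, scipy 1.17.1 and pysam 0.24.0.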

Additional observations from a re-analysis of the deposited data

How the results depend on the processing

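Of 35 recomputed values over 12 results, 23 stayed within the interval of the reported value or, for counts, within 1.5 times it. With only peaks wider than the list median of 1081 bp, a stand-in for a stricter threshold, 68 pathway peaks remained, at 42 members, with 1.62 peaks per member and 54.4% within 1 kb of the TSS. Counting peaks over gene bodies or the 10 kb upstream, whatever their symbol, gave 79 peaks at 46 members, with Eng gained and Inhbb and Nog lost. Reading whole peaks in place of the central 300 bp raised the share with GGCGCC to 43.1%, with the BMP response element to 5.38% (4.62% with T before and G after, chosen after seeing the data), with the FOXH1 letters to 39.2%, with the GATA letters to 42.3% and with the LIM-homeodomain letters to 23.8%, in that order against 34.3%, 0.290%, 33.2%, 33.5% and 24.5% of all peaks, since more letters are read. In the central 200 bp the GATA letters fell to a share of 6.15% and the palindromic SMAD site to 0.769%. TSS peaks were found at 33 to 44 members across 4 alternatives. No paired analysis was possible because all samples belong to 1 group, and no replicate could be left out because the list has no value per replicate.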
